A study of Mus musculus with 7 samples.

Results

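The replication-dependent histone genes were taken as the rows of the raw count table whose gene name starts with Hist1h, Hist2h, Hist3h or Hist4h. There were 70 such genes among 49492 rows. They code for the linker histone H1 (6 genes) and the core histones H2A (20), H2B (19), H3 (12) and H4 (13), and 3 of them are annotated as pseudogenes. By their names, 56 belong to the Hist1 cluster on chromosome 13, 10 to Hist2 on chromosome 3, 3 to Hist3 on chromosome 11, and 1, Hist4h4, lies alone on chromosome 6 (mm10).

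RNA-seq counts were available for 7 libraries of mouse glioblastoma (GBM) from 2 models. NPCTKO tumors (4 samples) came from embryonic neocortical progenitors electroporated in utero with piggyBac plasmids carrying Cas9 and guides against tumor suppressor genes, and their EGFP+ or DsRed+ cells were sorted from the dissociated tumor before RNA isolation. NSCHRas-shp53 tumors (3 samples) were induced in adult mice by a lentivirus that expresses active human HRAS and a hairpin against Trp53, injected beside the lateral ventricle, and whole tumor tissue was used without sorting. All 7 samples are labelled strain C57BL/6, tissue GBM and age 3 months, with no untreated brain among them. Model and preparation changed together and cannot be told apart, and no source says whether each sample is a separate mouse, so p-values measure the spread between these samples.

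Replication-dependent histone genes are transcribed in S phase to package newly replicated DNA, and their RNAs normally end in a conserved stem-loop, bound by SLBP, in place of a poly(A) tail. In cells that have left the cycle, some of these genes also give longer, polyadenylated RNAs that use a downstream poly(A) signal. All 7 libraries were made from poly(A)-selected RNA, so a second library type for comparison was not analysed here, and RNAs that end at the stem-loop are largely outside what was measured.

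The stem-loop was searched for in the annotated transcripts (GENCODE vM21) as the feature that separates these RNAs from other mRNAs, and 44 of 70 members held it, in 6 versions. They are written as DNA, 5′ to 3′, with the paired stem bases in capitals and the loop in lower case.
Stem-loop of 26 members, none of class H4: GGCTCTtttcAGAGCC
Stem-loop of 7 members, all H4: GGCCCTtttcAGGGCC
Stem-loop of 6 members, none of class H4: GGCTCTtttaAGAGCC
Stem-loop of Hist1h4i and Hist2h4: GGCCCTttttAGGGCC
Stem-loop of Hist1h4b and Hist1h4j: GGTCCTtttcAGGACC
Stem-loop of Hist2h2ac: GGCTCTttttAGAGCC
No version was shared between H4 and the other classes. The other 26 members had no match in their annotated transcript. For many of these, such as Hist1h2bl, Hist1h3h and Hist1h4k, the annotated transcript ends at the stop codon. A stem-loop after the stop codon could not be found in such transcripts, so no match does not mean that the gene lacks it.

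RefSeq promoters (250 bases before to 50 after the start, GRCm38.p6) were matched for 62 members. CCAAT on either strand was in 85.5% of these against 37.4% of all 32851 promoters, and TATAAA on either strand in 56.5% against 13.6%. CCAAT was in every H1, H2A, H2B and H3 promoter matched but in 3 of 12 H4 promoters. The octamer ATGCAAAT of the factor Oct-1, which acts on H2B genes, was in 13 promoters (7 H2A and 6 H2B, none of the others) against 1.74% of all promoters, and divergent H2A and H2B genes share part of their windows. A match is a description of letters only. The promoters of the member with the most counts (Hist1h1c), of the Hist3 pair and of an H4 gene without these motifs are shown, with matches to these motifs on either strand in capitals.
Hist1h1c promoter, chr13:23738557-23738856, plus strand: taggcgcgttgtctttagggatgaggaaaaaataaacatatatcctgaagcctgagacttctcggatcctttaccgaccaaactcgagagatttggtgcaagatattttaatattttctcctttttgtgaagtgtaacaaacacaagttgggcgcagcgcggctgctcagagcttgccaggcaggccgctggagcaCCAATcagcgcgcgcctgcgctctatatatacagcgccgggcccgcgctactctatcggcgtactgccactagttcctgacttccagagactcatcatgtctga
Hist3h2ba promoter, chr11:58948661-58948960, plus strand: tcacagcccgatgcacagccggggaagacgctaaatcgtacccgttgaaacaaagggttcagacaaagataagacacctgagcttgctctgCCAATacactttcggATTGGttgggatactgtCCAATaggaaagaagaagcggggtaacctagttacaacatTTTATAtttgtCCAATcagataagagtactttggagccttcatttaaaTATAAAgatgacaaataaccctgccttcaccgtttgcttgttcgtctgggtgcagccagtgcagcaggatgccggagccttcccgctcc
Hist3h2a promoter, chr11:58954435-58954734, plus strand: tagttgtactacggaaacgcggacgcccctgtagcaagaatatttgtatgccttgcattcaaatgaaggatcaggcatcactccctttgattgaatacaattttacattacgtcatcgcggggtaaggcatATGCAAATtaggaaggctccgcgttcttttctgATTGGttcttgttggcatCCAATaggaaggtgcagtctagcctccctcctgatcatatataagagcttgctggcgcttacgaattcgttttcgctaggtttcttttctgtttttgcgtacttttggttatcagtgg
Hist1h4h promoter, chr13:23530794-23531093, plus strand: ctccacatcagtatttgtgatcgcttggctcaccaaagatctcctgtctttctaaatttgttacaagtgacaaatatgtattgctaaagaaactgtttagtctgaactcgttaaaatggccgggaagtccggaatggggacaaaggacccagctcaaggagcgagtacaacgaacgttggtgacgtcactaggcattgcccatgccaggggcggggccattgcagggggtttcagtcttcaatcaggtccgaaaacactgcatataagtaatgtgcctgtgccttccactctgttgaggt

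Most histone cluster genes were barely read. Of 70 members, 60 had a count in some library and 10 had none, 41 reached 10 counts in some library, 11 reached 10 in every library and 9 reached 100 in some library. The 7 rows that lie wholly inside the span of other genes were all at 0 (Hist2h2aa1, Hist2h2aa2, Hist2h3c1, Hist2h3b, Hist2h2bb, Hist3h2a and Hist1h4b), and 18 more were overlapped in part. Such covered genes received almost no reads in the count table, and these zeros say nothing of their RNA. The members took 0.0145% (95% Wilson interval 0.0139 to 0.0151) of all counts in NPCTKO 4, the lowest library, and 0.0355% (0.0347 to 0.0364) in NSCHRas-shp53 1, the highest, intervals that cover counting error only. The library totals ranged from 15002873 to 19840860 counts, and 3 counts corresponded to 0.130 to 0.234 CPM (CPM, counts scaled to library size with TMM factors). Near-identical copies add to the uncertainty, since 37 members shared at least 50% of their 50-base words with transcripts of other genes and 5 shared all of them.

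A pair of genes held most of the counts. Hist1h1c, the linker histone H1.2, and Hist1h2bc, an H2B gene, took 61.9% to 81.4% of the member counts of a library. Hist1h1c (chr13:23738808-23740367, plus strand) stood at 258, 186, 94.8 and 71.4 CPM in NPCTKO 1 to 4 and at 179.8, 124 and 107 CPM in NSCHRas-shp53 1 to 3. NPCTKO 1 and 2 were the 2 highest libraries and NPCTKO 3 and 4 the 2 lowest, so the models overlapped. Hist1h2bc (chr13:23684199-23692488, plus strand) stood at 42.4, 49.3, 25.1 and 16.3 CPM in NPCTKO and at 112, 110.4 and 91.5 CPM in NSCHRas-shp53, with every whole-tumor library above every sorted one. Its row spans 8290 bases for an annotated transcript of 1156. That transcript shares 30.6% of its 50-base words with other genes, 220 in all, so the source of part of its reads is uncertain. In bulk samples, fewer cells of a type and less RNA per cell cannot be told apart. Per transcript length, in FPKM, Hist1h1c was at 101 ± 42.5 (SD, n = 4) and 111 ± 20.6 (n = 3), and Hist1h2bc at 50.6 ± 25.2 and 274 ± 54.1, in NPCTKO and NSCHRas-shp53.

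**Figure D1:**
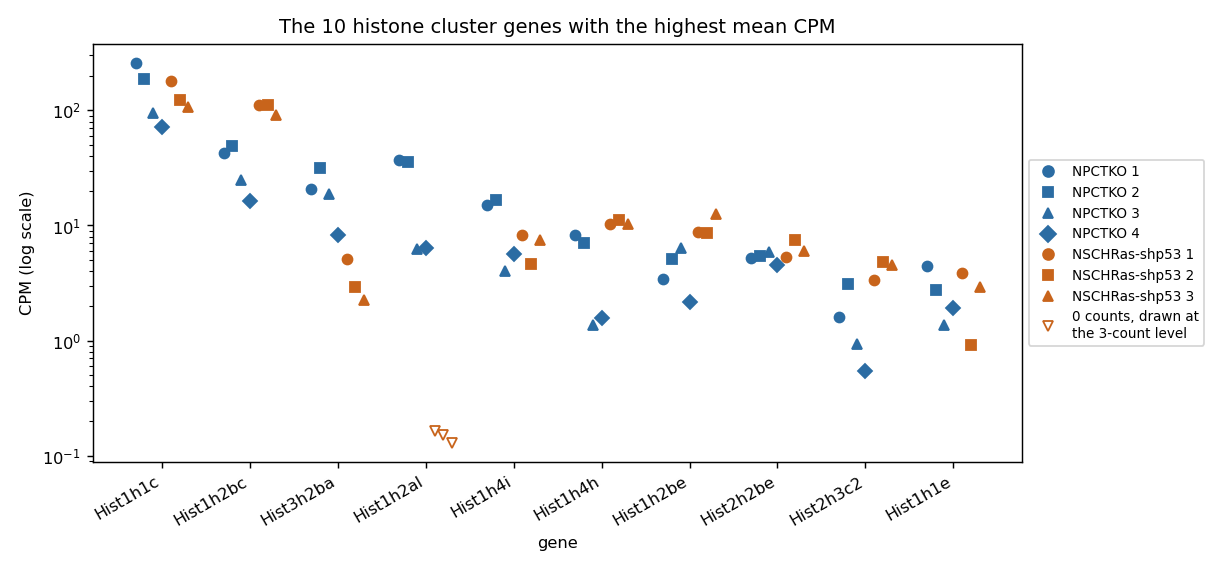
CPM (log axis) of the 10 histone cluster genes with the highest mean CPM in each of the 7 libraries, with NPCTKO in blue and NSCHRas-shp53 in orange and each symbol a library. Hist1h2bc lies higher in all 3 NSCHRas-shp53 libraries, Hist3h2ba and Hist1h2al lie lower, and the models overlap for Hist1h1c; open triangles are libraries with 0 counts, drawn at the level of 3 counts.

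Among H2B genes, Hist3h2ba (chr11:58948920-58949533, plus strand), the H2B gene of the Hist3 pair whose promoter is shown above, ran the other way from Hist1h2bc. It was at 20.8, 31.4, 18.9 and 8.34 CPM in NPCTKO and at 5.08, 2.89 and 2.25 CPM in NSCHRas-shp53. All 4 sorted libraries were above the whole-tumor ones. Its partner Hist3h2a has no counts of its own, and the FPKM row that it shares with Trim17 read 60.9, 73.1, 40.02 and 27.9 against 30.1, 31.2 and 26.1. Hist1h2be (chr13:23583742-23621124, minus strand), whose row spans 37383 bases, was at 3.43, 5.15, 6.41 and 2.18 CPM against 8.85, 8.52 and 12.6. Hist2h2be (chr3:96221119-96223738, plus strand), an H2B gene also read in cells that do not divide, was the most even of the leading genes, at 5.25, 5.38, 5.83 and 4.53 CPM against 5.36, 7.46 and 6.01.

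Most H2A counts in NPCTKO came from a single row, Hist1h2al (chr13:51202688-51203065, minus strand), annotated as a processed pseudogene far from the Hist1 cluster. It read 37.4, 35.8, 6.199 and 6.35 CPM in NPCTKO and had 0 counts in all 3 NSCHRas-shp53 libraries. Against the level of 3 counts per library, its lowest NPCTKO library was at least 37.8-fold higher. Its transcript shared 67.6% of its 50-base words with other genes, and 36.5% of its row is overlapped by another gene, so the source of these reads is uncertain. The other H2A genes named were low: Hist1h2ae was at 1.84 ± 1.34 CPM (SD, n = 4) against 0.779 ± 0.338 (n = 3), and Hist1h2ac at 0.460 ± 0.356 against 0.963 ± 0.227.

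Several H4 and H3 genes spread widely within NPCTKO. Hist1h4h (chr13:23531050-23531522, plus strand) was at 8.21, 7.10, 1.35 and 1.57 CPM in NPCTKO and at 10.4, 11.2 and 10.3 CPM in NSCHRas-shp53. Hist1h4i (chr13:22040636-22041362, minus strand) was at 14.9, 16.5, 4.01 and 5.62 CPM against 8.31, 4.62 and 7.48. For each of these, NPCTKO 1 and 2 stood apart from NPCTKO 3 and 4. Hist1h4k did not share this split, at 1.01, 1.48, 1.56 and 1.09 CPM against 1.64, 1.12 and 1.08. The H3 genes Hist2h3c2 (1.61, 3.12, 0.938 and 0.544 CPM against 3.33, 4.77 and 4.50) and Hist1h3d (3.09, 3.198, 1.04 and 0.423 CPM against 3.01, 3.40 and 3.07) were lowest in NPCTKO 3 and 4. Hist1h3f was at 0.941 ± 0.722 CPM (n = 4) against 0.398 ± 0.259 (n = 3). Among the linker histones, Hist1h1e was at 2.61 ± 1.34 CPM against 2.55 ± 1.49 and Hist1h1d at 2.04 ± 1.28 against 0.964 ± 0.439. The remaining genes outside Hist1 with 10 counts, Hist2h4 (0.808 ± 0.380 against 0.815 ± 0.588 CPM) and Hist4h4 (0.371 ± 0.196 against 0.451 ± 0.221 CPM), overlapped between the models.

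**Figure D2:**
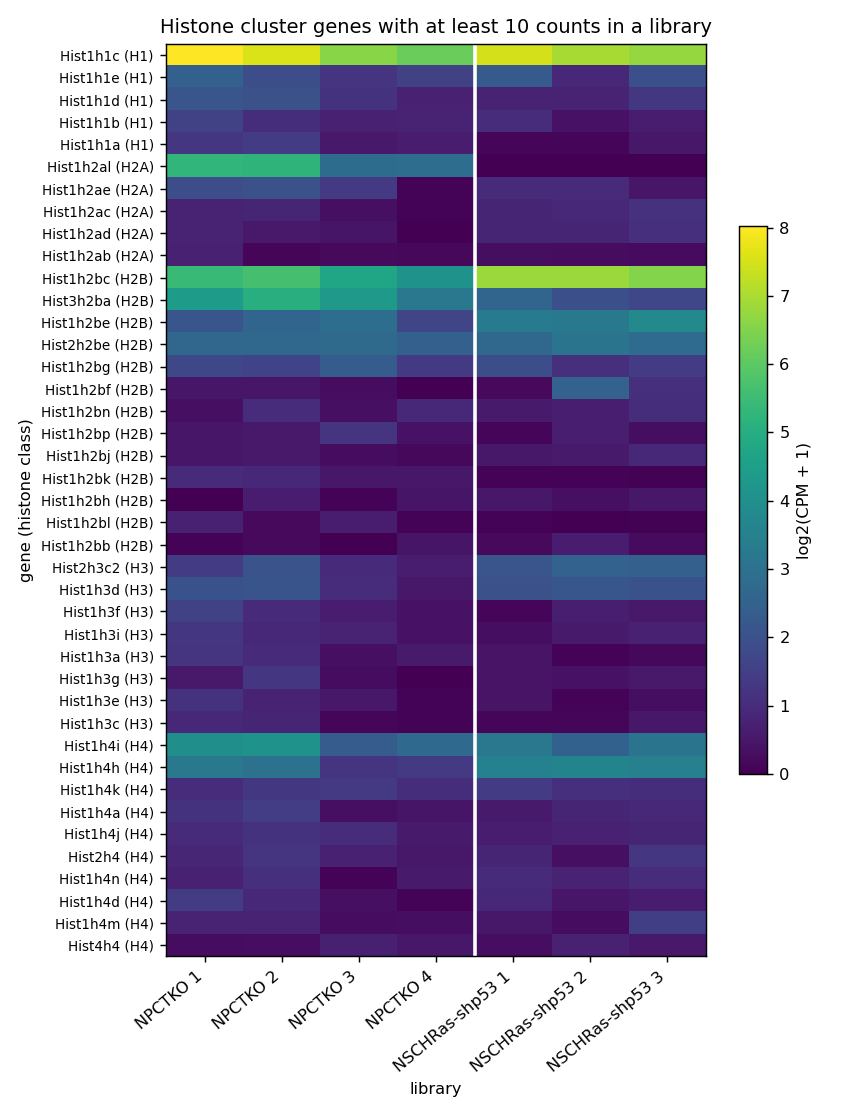
Heat map of log2(CPM + 1) for the 41 histone cluster genes with at least 10 counts in some library (rows, ordered by histone class and mean CPM) in the 7 libraries (columns), with the models parted by a white line. Hist1h1c and Hist1h2bc are the brightest rows, most rows are near the bottom of the scale, and many are brighter in NPCTKO 1 and 2 than in NPCTKO 3 and 4.

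Because the libraries were poly(A)-selected, the level was set beside the annotated 3′ end. A poly(A) signal, AATAAA or its common variant with T as second letter (ATTAAA), was searched for in the last 40 bases of annotated transcripts. At least 1 transcript held it in 17 of 70 members. Among all transcripts, counted singly and not by gene, 32.6% held it, so the 2 shares are not directly comparable. Of members with their own FPKM row and a stem-loop in the transcript, 16 had at least 100 annotated bases after the loop and 15 had fewer. The first group had a median mean FPKM of 2.05, with 12 members at 1 FPKM or more, and the second a median of 0.776, with 5 members at 1 FPKM or more. Hist1h1c (840 bases after the loop), Hist3h2ba (169) and Hist1h4i (330) led the first group. Hist2h2aa2 (35 bases) led the second with a mean of 7.32 FPKM, and all its 50-base words are shared with other transcripts. Hist1h4h (46 bases) has no FPKM row of its own, and at a mean of 7.17 CPM it was also well read with a short annotated tail. This is a description across genes, which are not independent replicates, and annotation is itself drawn from polyadenylated RNA. Hist1h2bc, with no stem-loop in its annotated transcript, falls in neither group.

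**Figure D3:**
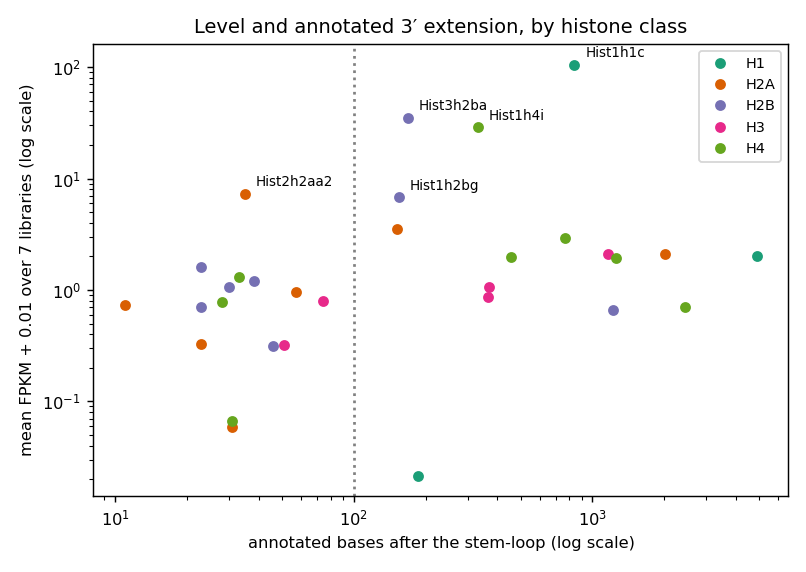
Mean FPKM + 0.01 over the 7 libraries (log axis) against the number of annotated bases after the stem-loop (log axis) for 31 histone cluster genes, coloured by histone class, with a dotted line at 100 bases. Hist1h1c, Hist3h2ba and Hist1h4i lie highest, all right of the line, and Hist2h2aa2 at 7.32 FPKM is the highest point left of it.

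Other RNAs without a poly(A) tail also had few counts. A list of 33 (32 in the table) small nuclear, nucleolar and other structural RNAs summed to 20.0, 10.3, 4.12 and 9.91 CPM in NPCTKO and 6.56, 2.74 and 2.03 CPM in NSCHRas-shp53. Only 2 of them had enough counts to be tested. Rows covered by other genes received almost no reads whatever their RNA, so these low sums are not read as an effect of poly(A) selection, which was not tested. The 70 histone genes summed to 435.2, 381, 187 and 132 CPM against 358, 298 and 271 CPM. Without Hist1h1c and Hist1h2bc the sums were 135, 145, 67.4 and 43.9 CPM against 66.7, 63.9 and 72.1 CPM. In both of these CPM forms NPCTKO 1 and 2 were the highest libraries and NPCTKO 4 the lowest, and the models overlapped. The order depended on the scale. In CPM on library totals, with no TMM factors, the 70 genes summed to 336, 290.3, 219 and 145 against 355, 335 and 316, which still overlapped. In FPKM, over the 50 members with their own row, they summed to 409.6, 400.5, 284 and 160.3 against 457, 517 and 434, with every whole-tumor library above every sorted one. Hist1h2bc gave 67.0, 76.7, 35.2 and 23.6 of these FPKM against 232, 335 and 255. Without Hist1h2bc the FPKM sums overlapped between the models.

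To ask how histone RNA followed proliferation, these sums were set beside 62 DNA replication genes and 56 mitosis genes. The S phase list summed to 3187, 3178, 3388 and 3088 CPM in NPCTKO and to 1042, 1087 and 1063 CPM in NSCHRas-shp53. The mitosis list summed to 2009, 1734, 3630.4 and 3809 CPM against 772, 964 and 878 CPM. Both sums were higher in every sorted library than in any whole-tumor library, whereas the histone sums in CPM overlapped. Per unit of S phase RNA the histone sum was 0.137, 0.120, 0.0553 and 0.0426 in NPCTKO and 0.344, 0.274 and 0.255 in NSCHRas-shp53. Without Hist1h1c and Hist1h2bc this ratio was 0.0422, 0.0457, 0.0199 and 0.0142 against 0.0640, 0.0587 and 0.0678, and in neither form did the models overlap. Per unit of mitosis RNA the ratio was 0.217, 0.2195, 0.0516 and 0.0346 against 0.464, 0.309 and 0.3086, but without Hist1h1c and Hist1h2bc it was 0.0670, 0.0837, 0.0186 and 0.0115 against 0.0864, 0.0663 and 0.0821, which overlapped.

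**Figure D4:**
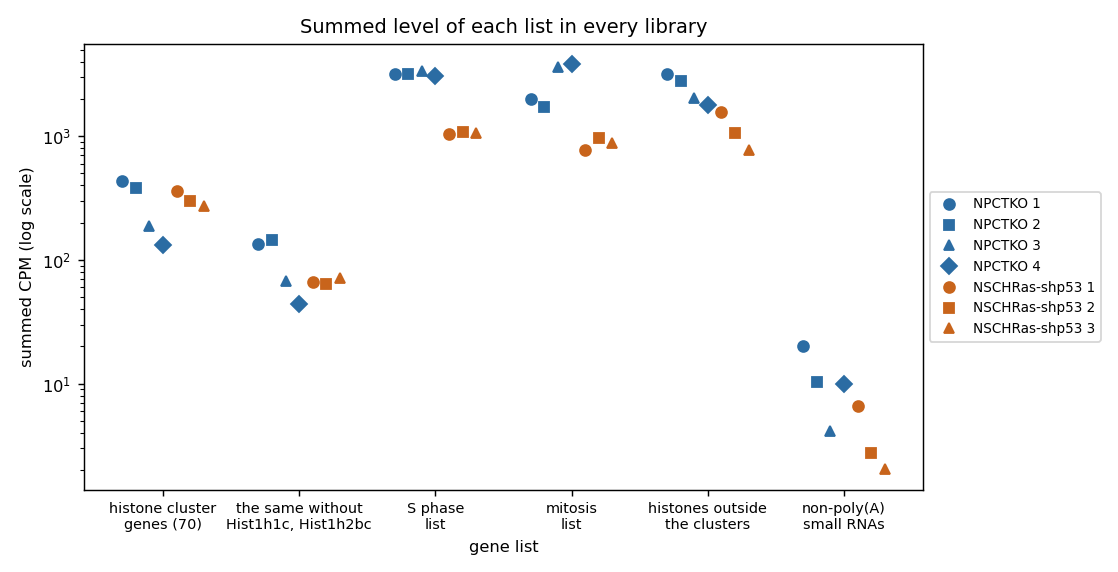
Summed CPM (log axis) of 6 gene lists in each of the 7 libraries, with NPCTKO in blue and NSCHRas-shp53 in orange and each symbol a library. The S phase and mitosis sums lie higher in all 4 NPCTKO libraries, the histone cluster sums overlap between the models, and NPCTKO 3 and 4 are the highest libraries for mitosis but the lowest NPCTKO libraries for histones.

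Within NPCTKO most of the tested histone genes were higher in samples 1 and 2, and most mitosis genes lower. Mki67, the Ki67 antigen, was at 14.7, 17.1, 189 and 220.4 CPM in NPCTKO 1 to 4, and Top2a, topoisomerase of the mitotic chromosome, at 97.5, 131, 377 and 469 CPM. Of the 27 histone genes with enough counts to be tested, 21 were higher in NPCTKO 1 and 2 than in NPCTKO 3 and 4 and none was lower. Of all 16091 genes tested, 37.9% were higher and 36.3% lower. Of 54 mitosis genes, 3 were higher and 38 lower in NPCTKO 1 and 2. Of 59 S phase genes, 21 (35.6%) were higher and 25 (42.4%) lower, near the shares of all genes. Of 11 histone genes outside the clusters, 9 were higher and none lower. The labels do not part these 4 samples and no test was made. The same pairs differ in how CPM follows transcript GC content over all genes (Spearman 0.559 and 0.483 in NPCTKO 1 and 2, -0.368 and -0.353 in NPCTKO 3 and 4), and the tested histone transcripts have a median GC content of 54.1% beside 49.6% for all genes tested. With trends by GC content and length removed, 13 of 27 histone genes were higher in NPCTKO 1 and 2 and 2 were lower, beside 33.3% of all genes higher and 32.8% lower.

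Between the models, 3 histone cluster genes were called, and 1 of these, Hist1h2al, passed the filter on low counts only through NPCTKO, where it is high. edgeR's quasi-likelihood test on counts (Benjamini-Hochberg adjusted p under 0.05) was run on 16091 genes, of which 27 were members; the other 43 members did not pass the filter on low counts, which a gene can pass through the model where it is high. In NSCHRas-shp53, 1 member was higher, beside 7.77% of all genes tested, and 2 were lower, beside 5.28%, so the members' shares were near the background. Hist1h2bc was higher by a log2 fold change of 1.65 ± 0.39 (SE; adjusted p = 0.0311), and Hist3h2ba fell by 2.54 ± 0.55 on the log2 scale (adjusted p = 0.0224). For Hist1h2al only the values given above are shown, since a gene that enters the test in this way had to differ. Leaving out NSCHRas-shp53 1, 2 or 3 brought the number called to 2, 1 and 1, ending the call of Hist1h2bc each time and that of Hist3h2ba without sample 2 or 3. Without NPCTKO 3 and 4 the number was 10, and without NPCTKO 1 and 2 it was 4, with Hist3h2ba no longer called.

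The median log2 fold change of the 27 members was -0.15, beside -0.10 for all genes tested, with 11 members above 0 and 16 below. Groups did not overlap in CPM for 8 members, 5 higher in NSCHRas-shp53 beside 16.3% of all genes tested and 3 lower beside 14.9%. By class, none of 5 H1, 4 H3 and 8 H4 genes tested was called, and of 6 H2B genes 1 was higher and 1 lower. The 1 of 4 H2A genes called lower was Hist1h2al, the pseudogene that passed the filter only through NPCTKO. Its call is not read as a result for the H2A class. Hist2h3c2 (log2 fold change 1.44 ± 0.61, adjusted p = 0.155), Hist1h4h (1.23 ± 0.67, adjusted p = 0.257) and Hist1h2be (1.22 ± 0.46, adjusted p = 0.118) did not pass the test in edgeR, although no library overlapped. The log2 fold change of Hist1h1c was -0.15 ± 0.47 (edgeR, adjusted p = 0.861), and its sign changed under other settings.

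**Figure D5:**
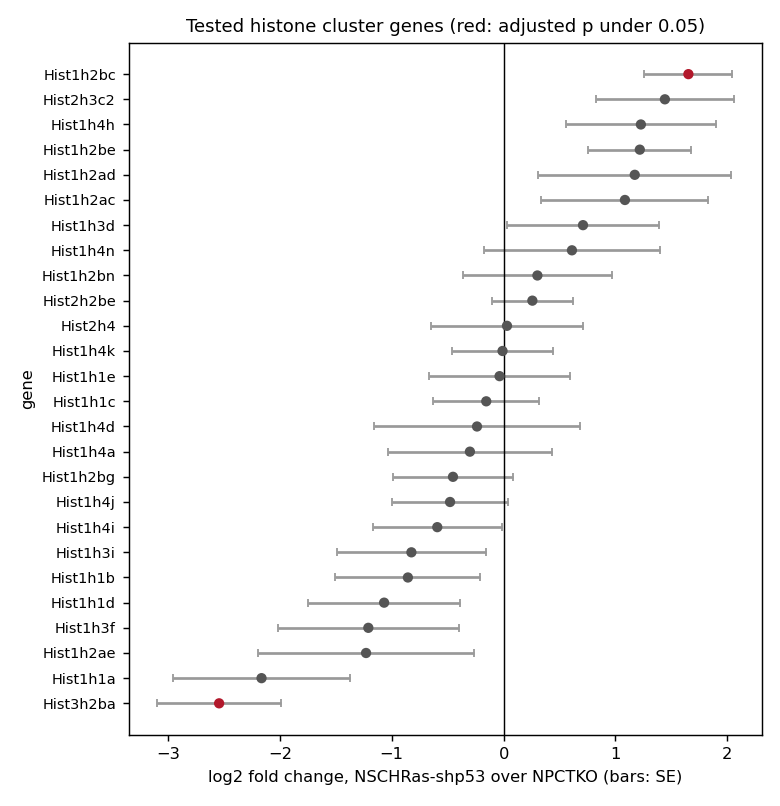
Log2 fold change, NSCHRas-shp53 over NPCTKO, with its SE for 26 of the 27 tested histone cluster genes, with those at an adjusted p under 0.05 in red. Hist1h2bc at 1.65 and Hist3h2ba at -2.54 are the ends of a spread on both sides of 0; Hist1h2al is left out because NSCHRas-shp53 has 0 counts.

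The FPKM table, made separately from the counts, covered some genes that the count table leaves at 0. By limma on log2(FPKM + 1), 37 members were tested, 2 were higher in NSCHRas-shp53 beside 9.56% of 13505 genes and 3 were lower beside 6.40%. Of the 3 lower, Hist2h2bb and Hist1h2bk passed the FPKM filter only through NPCTKO, so their values are given as a description. Hist1h2bc (log2 difference 2.54 ± 0.43, adjusted p = 0.00673) and Hist3h2ba (-2.16 ± 0.39, adjusted p = 0.00886) kept their directions in limma. Hist2h2bb, an H2B gene at 0 counts, read 4.64, 3.60, 6.85 and 3.39 FPKM in NPCTKO and 0, 0.446 and 0 in NSCHRas-shp53. Hist1h2bk read 1.60, 2.58, 1.13 and 1.61 against 0.207, 0.229 and 0 FPKM. Hist2h3c1 was higher in NSCHRas-shp53, at 1.15, 1.81, 0.891 and 0.399 against 2.61, 3.93 and 3.76 FPKM (limma, adjusted p = 0.0305). Hist2h2bb and Hist2h3c1 share all their 50-base words with other transcripts, so their reads cannot be placed with certainty.

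Of 59 S phase genes tested, 29 were lower in NSCHRas-shp53 and none higher, and of 54 mitosis genes, 28 were lower and none higher, beside 5.28% of all genes tested that were lower. The median log2 fold changes were -1.58 and -1.88. Of the replicative helicase, Mcm5 fell by 3.17 ± 0.38, Mcm2 by 2.34 ± 0.31 and Mcm6 by 1.98 ± 0.28 on the log2 scale (edgeR, adjusted p = 0.00372, 0.00488 and 0.00608). Cdc20, activator of the anaphase-promoting complex, fell by 2.93 ± 0.33, Cdca8 of the chromosomal passenger complex by 2.42 ± 0.28 and Racgap1 of the central spindle by 2.19 ± 0.27 (edgeR, adjusted p = 0.00335, 0.00365 and 0.0039). The replication clamp Pcna (log2 fold change -0.67 ± 0.31, adjusted p = 0.185), Top2a (-2.01 ± 0.59, adjusted p = 0.0575) and Mki67 (-1.63 ± 0.96, adjusted p = 0.290) did not pass in edgeR. Leaving out NSCHRas-shp53 1, 2 or 3 left 14, 11 and 11 S phase genes and 15, 17 and 11 mitosis genes called, all lower.

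Of 30 tested genes for factors that make and process histone RNA, 2 were lower in NSCHRas-shp53 and none higher, a share near the 5.28% of all genes that were lower, with a median log2 fold change of -0.46. These were Srrt, a cap-complex partner, lower by a log2 fold change of -1.06 ± 0.27 (edgeR, adjusted p = 0.0366), and Upf1, a helicase of histone mRNA decay, at -1.07 ± 0.28 (adjusted p = 0.0409). Both calls were lost when any of NPCTKO 1, 2 or 4 or NSCHRas-shp53 1, 2 or 3 was left out, which brought the count to 0, and without NPCTKO 3 it was 3. The cap-binding gene Ncbp1 did not pass (-0.95 ± 0.32, adjusted p = 0.0840 in edgeR). Slbp, which binds the stem-loop shown above, was at 32.6, 35.5, 71.8 and 51.8 CPM in NPCTKO and 31.3, 34.4 and 30.6 CPM in NSCHRas-shp53 (edgeR, adjusted p = 0.290). Npat, the activator of histone transcription, was at 8.07, 6.55, 56.2 and 50.1 CPM against 27.4, 31.7 and 33.6 CPM (edgeR, adjusted p = 0.984). Both were higher in NPCTKO 3 and 4, the libraries with the lowest summed CPM of all 70 histone cluster genes. Without Hist1h1c and Hist1h2bc, the sum of NPCTKO 3 (67.4 CPM) was above those of NSCHRas-shp53 1 and 2 (66.7 and 63.9 CPM).

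Histone chaperones and histones outside the clusters were lower in NSCHRas-shp53 where they were called. Of 23 chaperones tested, 5 were lower and none higher, beside 5.28% of all genes lower. They include the large and middle subunits of chromatin assembly factor 1, Chaf1a (log2 fold change -2.01 ± 0.26, adjusted p = 0.00456 in edgeR) and Chaf1b (-1.90 ± 0.36, adjusted p = 0.0149), and Asf1b (-1.70 ± 0.37, adjusted p = 0.0226). The number called was 3, 2 and 8 without NPCTKO 1, 2 and 3, and 1 without NSCHRas-shp53 1, 2 or 3. Of 11 histone genes outside the clusters, 4 were lower and none higher, beside the same 5.28%. These were H1fx (-2.82 ± 0.53, adjusted p = 0.0139 in edgeR), H1f0 (-1.78 ± 0.38, adjusted p = 0.0205), the macroH2A gene H2afy2 (-1.70 ± 0.38, adjusted p = 0.0256) and H2afz, which codes for H2A.Z (-1.71 ± 0.41, adjusted p = 0.0321). H2afx (-1.58 ± 0.44, adjusted p = 0.0502 in edgeR) and the H3.3 gene H3f3b (-0.97 ± 0.44, adjusted p = 0.175) did not pass. The number called was 2 without NPCTKO 1 or NPCTKO 2, and 2, 1 and 0 without NSCHRas-shp53 1, 2 and 3.

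Marker sums of neurons, astrocytes and endothelial cells were higher in every NSCHRas-shp53 library. Those of macrophages, T cells and oligodendrocytes overlapped between the models. Neuron markers (7 of 10 above 3 counts in every library) summed to 21.6 to 78.6 CPM in NPCTKO and 555 to 681 CPM in NSCHRas-shp53, astrocyte markers (7 of 8) to 227 to 613 and 2691 to 3691 CPM, and endothelial markers (8 of 10) to 48.0 to 345 and 684 to 1375 CPM. Tumor-associated macrophage markers (14 of 15) ranged from 456 to 23382 CPM among the sorted libraries, at 18745 and 23382 in NPCTKO 1 and 2 and 456 and 3072 in NPCTKO 3 and 4, and from 2692 to 7313 CPM in NSCHRas-shp53. Glioma precursor markers (9 of 11) summed to 4869 to 7211 and 2072 to 3292 CPM. They did not all go 1 way: of 9 tested in edgeR, 2 were called higher in NSCHRas-shp53 and 4 lower. Of all genes tested, 7.77% were higher and 5.28% lower. T cell markers (8 of 8) summed to 11.0 to 60.6 and 24.3 to 64.9 CPM, and oligodendrocyte markers (7 of 7) to 824 to 5804 and 1005 to 7689 CPM. Sox2, Gfap, P2ry12, Tubb3 and Nefl were at 0 counts in all libraries. The paper reports SOX2 and GFAP protein in NPCTKO tumor cells, so these zeros are not read as absent RNA. Their source was not tested. The part of these cells in the histone results was not tested.

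The genes whose pattern over the 7 libraries was most like that of the leading members were listed by Pearson's r of log2(CPM + 1), as a description over libraries of 2 models. For Hist1h1c they were Hcn2 (0.98), Arpc1b (0.98), Gpr37 (0.98), Tmem151a (0.98) and the H4 member Hist1h4d (0.97). For Hist1h2bc they were Susd6, Pea15a, Sdsl, Nbl1 and Klhdc8a (0.98 to 1.00), and for Hist3h2ba Asic1, Mmp15, Dis3l2, Chrna4 and Prph (0.99 to 1.00). No gene of the S phase or mitosis lists was among these 15. Those lists hold 62 and 56 genes of 49492 rows, so this absence says nothing of how histone RNA follows proliferation.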

How the data were processed

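The deposited raw counts come from reads that the authors trimmed (Cutadapt) and aligned to mm10 (TopHat 2.1.1). The counting tool was not given in the sources used here, and the submitters' processing notes name cutadapt 1.16 where the methods have another version. The counts are unstranded and cover whole gene spans. The authors computed the deposited FPKM values in Cufflinks 2.2.1, and some rows carry several gene names. The other column per gene, its span in bases, is a length set by the authors' annotation. RNA was poly(A)-selected and libraries were non-directional, per the labels. All 70 members and the gene lists were chosen with earlier results of these data known.

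Counts were scaled by TMM, filtered with filterByExpr and tested with edgeR 4.0.16 (quasi-likelihood test, adjusted p under 0.05, NSCHRas-shp53 minus NPCTKO) in R 4.3.3. limma 3.58.1 on log2(FPKM + 1), with rows at 0.5 FPKM or more in 3 libraries, and DESeq2 1.42.0 were alternatives. The named genes are every member called, the 10 members with the highest mean CPM, the top 3 of each class, members outside Hist1 with 10 counts, the 3 smallest p in each list, Mki67, Top2a, Pcna, Mcm2, Slbp, Npat, H2afz, H2afx and H3f3b, and the 5 genes most like each of the 3 leading members. Hist2h2bb, Hist1h2bk and Hist2h3c1 were named after their FPKM values were seen. Tables were made in Python 3.11.15 with pandas 2.3.3. The lower limit used was 3 counts per library, for counting error only. The edgeR test was checked on simulated data with known changes. Other alternatives were other scaling, filters and pseudocounts, a replicate block, GC content and length trends removed, overlapped rows left out and samples left out. Protein sequences were not used here.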

Additional observations from a re-analysis of the deposited data

How the results depend on the processing

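No source used here says whether the replicate numbers mark a shared litter or batch. Samples with the same number did not all deviate together from their group means (r = 0.27, -0.19 and 0.18). With a replicate block, the numbers called were 2 histone cluster genes (Hist1h2bc lost), 16 S phase genes, 14 mitosis genes, 0 histone RNA factors, 1 chaperone and 6 histones outside the clusters; a lost call is not read as a weaker effect. DESeq2 size factors and a CPM filter changed none of the 6 counts, and leaving out wholly overlapped genes removed no histone cluster gene that was tested. Histone cluster genes called numbered 5 by the DESeq2 test, 5 and 6 by limma on log2(FPKM + 1) and log2(FPKM + 0.1), 5 with GC content and length trends removed (3 higher and 2 lower), and 10 without NPCTKO samples 3 and 4 (2 higher and 8 lower). Without NPCTKO samples 1 and 2, 44 S phase genes, 51 mitosis genes, 7 histone RNA factors and 10 chaperones were called, all lower in NSCHRas-shp53. Without NPCTKO samples 3 and 4, 16 histone RNA factors (4 higher and 12 lower), 14 chaperones (3 higher and 11 lower) and 8 histones outside the clusters (all lower) were called, and 2 S phase genes and 6 mitosis genes were called higher beside 36 and 29 lower. Histone RNA factors called numbered 0 with no TMM factors, 0 with no filter, 5 by the DESeq2 test, 1 and 1 by limma on FPKM with the pseudocounts of 1 and 0.1, and 6 with trends removed. Chaperones numbered 3 with no TMM factors, 9 by the DESeq2 test and 9 with trends removed. With 1 sample left out at a time, 1 to 3 histone cluster genes, 11 to 29 S phase genes, 11 to 28 mitosis genes, 0 to 3 RNA factors, 1 to 8 chaperones and 0 to 6 histones outside the clusters were called. The log2 ratio of the summed CPM of the members was 0.12, from -0.11 to 0.41 with 1 sample left out, 0.44 with no TMM factors, 0.39 without Hist1h1c and 0.51 for FPKM. By alternatives chosen after seeing the data, it was 0.96 without NPCTKO samples 1 and 2, -0.40 without samples 3 and 4 and 0.58 for FPKM rows of 1 member. The SDs of the log2 sums in the 2 models, combined as the root of their summed squares, came to 0.85. Most of this spread lay within NPCTKO, with sums of 132 to 435 CPM beside 271 to 358 CPM in NSCHRas-shp53. The causes of these changes were not tested.

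Of 743 refits of 40 named genes, 617 kept their direction and their side of the threshold, 55 lost the call, 32 gained it and 39 changed sign, of which 38 involved no call. Mki67 was higher in NSCHRas-shp53 without NPCTKO samples 3 and 4 (log2 fold change 1.15, adjusted p = 0.0145 in edgeR) and at 0.024 with the replicate block. The log2 fold change of Hist1h1c was 0.15 with no TMM factors, 0.21 and 0.22 by limma on FPKM, 0.75 without NPCTKO 1 and 2, 0.30 with trends removed and -0.39 to 0.26 with 1 sample left out. That of Hist1h1e was 0.24 with no TMM factors, 0.66 without NPCTKO 1 and 2, 0.23 with trends removed and -0.41 to 0.38 with 1 sample left out. That of Hist1h4k was 0.16 with no TMM factors, 0.26 and 0.31 by limma, 0.028 without NPCTKO 3 and 4, 0.21 with trends removed and -0.19 to 0.11 with 1 sample left out. That of Hist2h4 was -0.67 and -1.15 by limma, -0.36 with the block, -0.38 without NPCTKO 3 and 4 and -0.65 to 0.45 with 1 sample left out. That of Npat was -0.75 without NPCTKO 1 and 2, -0.14 with trends removed and -0.28 to 0.51 with 1 sample left out. Hist1h4i (0.53) and Hist1h1d (0.039) changed sign without NPCTKO 1 and 2, and Hist1h3d (-0.0058) without NPCTKO 3 and 4.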
